A study of Homo sapiens with 4 samples.

Results

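Polycomb group proteins other than the chromobox (CBX) family were followed in A549 cells, a human lung adenocarcinoma line, as 41 genes chosen by symbol from the 28278 genes of the deposited count table, and all 41 were found there. They comprise 25 subunits or partners of Polycomb repressive complex 1 (PRC1), 13 of Polycomb repressive complex 2 (PRC2) and 3 of the Polycomb deubiquitinase PR-DUB. RNA sequencing of total RNA covered 2 libraries of a control line (genotype WT in the labels, carrying a control construct) and 2 of a line overexpressing CBX7. Both lines were made stable by lentiviral infection of A549 cells, so the controls carry a lentiviral construct too. Nothing in the labels says whether a line is a single clone or whether the replicates came from separate cultures, so each p-value reflects only how far these libraries spread, and that spread may be technical.

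Polycomb complexes keep developmental genes silent by marking histones. PRC1 is built on a RING1 or RNF2 ubiquitin ligase that pairs with a PCGF protein and monoubiquitinates histone H2A. Canonical PRC1 adds a CBX protein, which reads the PRC2 mark, and a PHC protein, while variant PRC1 carries RYBP or YAF2 in place of CBX. PRC2 methylates histone H3 at lysine 27 through EZH1 or EZH2 held by EED and SUZ12, and PR-DUB, the enzyme BAP1 with an ASXL protein, removes the H2A ubiquitin. CBX7, the protein overexpressed here, is a chromobox subunit of canonical PRC1, which places these 41 genes around it as partners, alternatives and opponents.

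Library totals ran from 69877585 to 90765502 counts. Levels are in CPM, a gene's count over the library total, scaled to a common library size with TMM, a factor that aligns most genes between libraries. The labels held for the gene introduced: CBX7 was at 8.0 and 8.74 CPM in control libraries 1 and 2 and at 19.0 and 17.2 CPM in CBX7 libraries 1 and 2 (log2 fold change 1.11, edgeR adjusted p = 0.000141). Of 10 lung epithelial markers fixed for A549, 6 averaged above 1 CPM, with KRT8, KRT18, ALDH1A1 and AKR1B10 each at 4554 CPM or more in every library, while KRT19, NKX2-1 and the surfactant genes SFTPB and SFTPC averaged below it. The list summed to 25022 and 26195 CPM in the controls and to 28739 and 31098 CPM with overexpression, where AKR1B10 (edgeR adjusted p = 0.00136) and NKX2-1 (0.0489) were called higher. Fibroblast markers summed to 5.12 and 7.58 CPM in the controls and to 7.95 and 7.30 CPM with overexpression, leukocyte markers to 1.36 in each control against 3.26 and 2.65 CPM, and endothelial markers to 1.61 and 0.836 against 2.88 and 3.68 CPM. CD14 and CDH5 were called higher among these, CD3E was at 0 in every library, and PTPRC was at 0 to 0.0961 CPM. CDKN2A, a gene that A549 cells have lost, was at 0 to 0.0733 CPM. These markers' part in the results below was not tested, and in bulk RNA fewer cells of a type and less RNA per cell cannot be told apart.

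Of the 41 Polycomb genes, 13 were lower with CBX7 overexpression and none was higher. Calls rest on edgeR's quasi-likelihood test over 17271 genes, with all 41 among them, at a Benjamini-Hochberg adjusted p under 0.05. Over those 17271 genes 24.4% were called, 13.9% lower and 10.5% higher. Among the 10201 tested genes whose mean level lay within the range of these subunits, 5.45 to 228 CPM, 17.6% were lower and 14.3% higher. The subunits' share was thus 31.7% lower and 0 higher, with no test of that difference. At an unadjusted p under 0.05, 15 were lower and 0 higher, and the share of all tested genes at that threshold was not worked out. DESeq2 and limma-voom each called 13 lower and 0 higher. Over all tested genes DESeq2 called 2551 lower and 1979 higher, and limma-voom 2467 lower and 1845 higher. The median log2 fold change of the 41 was -0.12, against 0.00 over all tested genes to 2 decimals.

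The falls were modest. Called genes changed by log2 fold changes of -0.78 to -0.42, none reaching 2-fold by fitted value, while CBX7 itself rose 2.17-fold. The 95% interval excluded a 2-fold fall for 12 of the 13. That of PCGF5 did not, running from -1.05 to -0.50. PRC2 had 6 of 13 subunits lower (46.2%), PRC1 7 of 25 (28.0%) and PR-DUB 0 of 3, against 13.9% of all tested genes. For PR-DUB the unadjusted test, DESeq2 and limma-voom gave 0 as well. Shares of so few genes, here and in the smaller sets below, are descriptions, and no difference was tested. Both CBX7 libraries lay below both controls for all 13 called genes and for 19 of the 41 in all, a pattern seen in 31.9% of tested genes. For the 13 this largely follows from the call and is no separate result. The CBX7 libraries lay above both controls for 6 of the 41, against 30.8% of tested genes, and overlapped with them for 16. Of the 28 genes that were not called, 27 had a 95% interval within 2-fold either way; BMI1 was the exception.

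**Figure D1:**
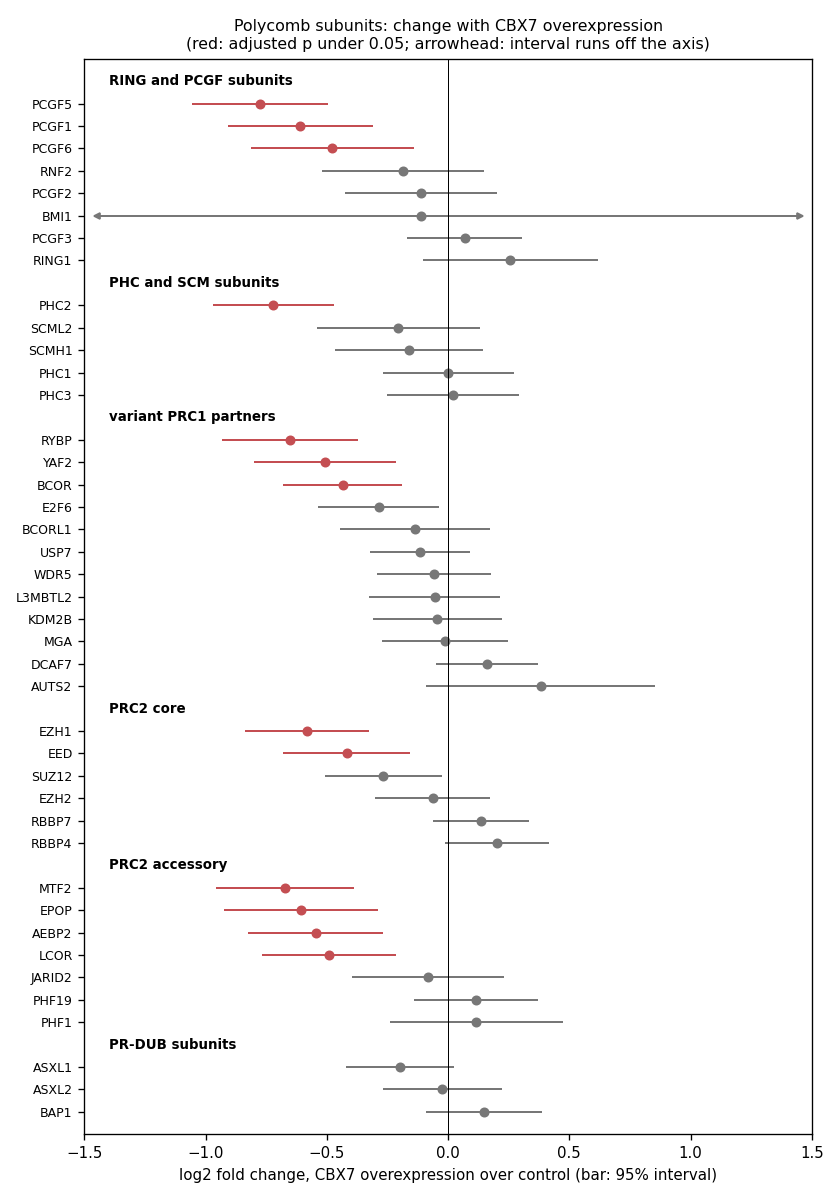
Fitted log2 fold change of each of the 41 subunits, CBX7 overexpression over control (points), with its 95% interval (bars), grouped by role; red marks an adjusted p under 0.05. The 13 red points lie between -0.78 and -0.42 and no grey point lies below -0.29, and the BMI1 interval runs off the axis.

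**Figure D2:**
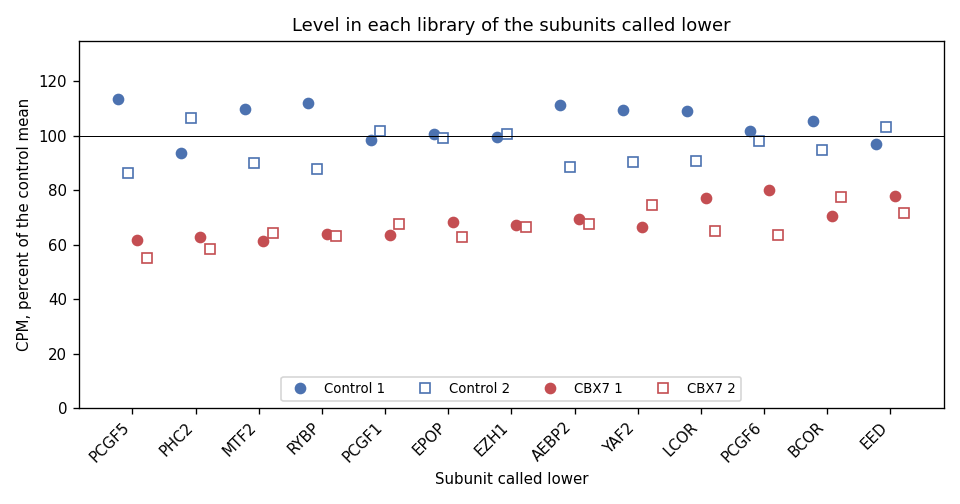
CPM of the 13 subunits called lower in each of the 4 libraries, as a percent of the control mean; circles are libraries 1 and squares libraries 2. In every gene both red points lie below both blue ones, which largely follows from showing only genes called lower.

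The RING and PCGF proteins form the catalytic heart of PRC1, and the PCGF partner decides which complex is built. Of the PCGF genes, PCGF1, PCGF5 and PCGF6 were called lower, and PCGF2, PCGF3 and BMI1 were not called. With RING1 and RNF2 this made 3 of 8 genes lower (37.5%, against 13.9% of all tested genes). PCGF5 (chromosome 10, 91163012 to 91284331, GRCh38), which defines a variant complex with AUTS2, was at 189 and 144 CPM in controls 1 and 2 and at 103 and 91.5 CPM in CBX7 libraries 1 and 2. It fell by 41.6% (log2 fold change -0.78, SE 0.129, edgeR adjusted p = 0.000611), with the controls further apart from each other than the CBX7 libraries. PCGF1 (chromosome 2, 74505043 to 74508580), which pairs with KDM2B and BCOR at CpG islands, was at 21.9 and 22.7 CPM in the controls against 14.2 and 15.05 CPM, and its log2 fold change was -0.61 (SE 0.137, adjusted p = 0.00532). PCGF6 (chromosome 10, 103302796 to 103351144), the PCGF of the complex with MGA and L3MBTL2, was at 19.0 and 18.3 CPM against 14.9 and 11.9 CPM, its log2 fold change being -0.48 (SE 0.155, adjusted p = 0.0384). The groups were apart in all 3 genes, but PCGF6 sat at the threshold. Its call ended with library totals in place of TMM (adjusted p = 0.0716), without robust estimation (0.0507), without control 1 (0.101), without control 2 (0.0811) and without CBX7 library 2 (0.400), and that of PCGF1 ended without CBX7 library 1 (0.0679).

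PCGF3, a close relative of PCGF5, was at 55.8 and 52.1 CPM in the controls, and after overexpression at 55.6 and 57.5 CPM (log2 fold change 0.07, 95% interval -0.16 to 0.30). PCGF2, a PCGF of canonical PRC1, was at 29.04 and 39.3 CPM against 32.5 and 30.6 CPM, so that the groups overlapped (log2 fold change -0.11, interval -0.42 to 0.20). The ubiquitin ligases themselves were not called. RING1 was at 10.8 and 14.1 CPM in the controls and at 14.4 and 15.4 CPM with overexpression (log2 fold change 0.26, interval -0.10 to 0.61), and RNF2 at 17.1 and 14.2 CPM against 13.7 and 13.7 CPM (log2 fold change -0.19, interval -0.52 to 0.14). In both ligases the controls differed from each other by more than the CBX7 libraries did.

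BMI1, the other PCGF protein of canonical PRC1, could not be read from its own count. It was at 34.0 and 41.02 CPM in the controls but at 54.1 CPM in CBX7 library 1 and 15.3 CPM in CBX7 library 2, and the interval of its log2 fold change ran from -3.55 to 3.33. The read-through gene COMMD3-BMI1, whose transcripts run from the neighbouring COMMD3 gene into BMI1, moved in the opposite sense, with 53.8, 30.6, 12.1 and 50.9 CPM in the same order. BMI1 took 38.7%, 57.3%, 81.7% and 23.1% of the counts of these 2 genes together. Their sum was far steadier, at 87.7 and 71.6 CPM in the controls and 66.2 CPM in each CBX7 library. Fitted as a single gene it had a log2 fold change of -0.27 (interval -0.52 to -0.01, edgeR adjusted p = 0.125). The sum may hold reads of COMMD3 exons, so it is not a measure of BMI1 alone. COMMD3 itself was at 22.2 and 23.2 CPM in the controls and at 30.2 and 30.0 CPM with overexpression (log2 fold change 0.41, edgeR adjusted p = 0.0253). The direction fitted for BMI1 alone depended on which CBX7 library was kept: it was lower without CBX7 library 1 (log2 fold change -1.29, adjusted p = 8.36e-07) and higher without CBX7 library 2 (0.54, adjusted p = 0.0193).

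**Figure D3:**
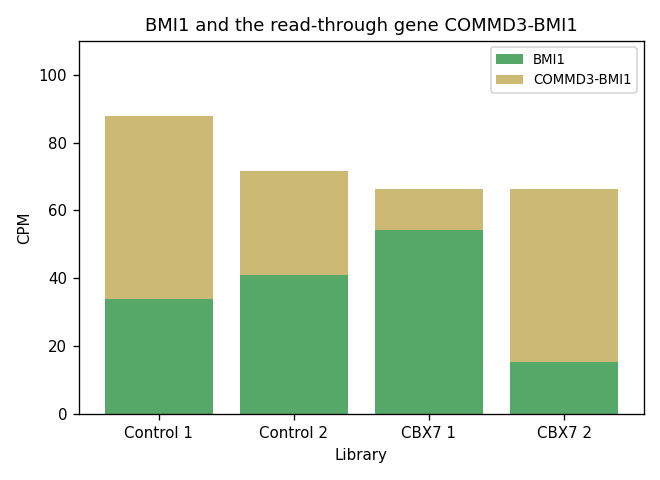
CPM of BMI1 (green) and of the read-through gene COMMD3-BMI1 (tan) stacked for each of the 4 libraries. The division between them differs from library to library, while the stacked height lies between 66.2 and 87.7 CPM.

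PHC and SCM proteins join canonical PRC1 and link its copies together through SAM domains. Of 5 genes, PHC2 alone was called, against 24.4% of all tested genes called in either direction and 13.9% called lower. PHC2 (chromosome 1, 33323623 to 33431052), the most abundant PHC gene per length in the controls, was at 67.9 and 77.2 CPM in controls and 45.6 and 42.4 CPM with overexpression, and fell by 39.3% (log2 fold change -0.72, SE 0.114, adjusted p = 0.000387). This was the smallest adjusted p among the 41 genes. The fitted values of its paralogs lay near 0: PHC1 had a log2 fold change of 0.00 (interval -0.27 to 0.27) and PHC3 of 0.02 (interval -0.25 to 0.29). The SCM proteins SCMH1 and SCML2 had log2 fold changes of -0.16 and -0.21, and in these 4 uncalled genes the groups overlapped.

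Variant PRC1 partners replace CBX and PHC proteins and bring the ligase to chromatin by other routes. Of 12 genes, 3 were lower, against 13.9% of all tested genes, and none was higher, against 10.5%. DESeq2 and limma-voom gave the same counts for these 12 genes. RYBP (chromosome 3, 72371825 to 72446621), which binds RING1 or RNF2 at the surface used by CBX proteins and stimulates H2A ubiquitination, was at 67.5 and 52.8 CPM in controls and 38.5 and 38.1 CPM with overexpression (log2 fold change -0.65, SE 0.128, adjusted p = 0.00216). Its paralog YAF2 (chromosome 12, 42157104 to 42238349) was at 36.2 and 29.8 CPM against 21.9 and 24.6 CPM (log2 fold change -0.51, SE 0.134, adjusted p = 0.0137). RYBP and YAF2 thus fell together, though the YAF2 call ended without control 1 (adjusted p = 0.103) or without CBX7 library 1 (0.152). BCOR (chromosome X, 40049815 to 40177329), a corepressor that binds PCGF1, was at 83.7 and 75.1 CPM in controls and 56.1 and 61.4 CPM with overexpression (log2 fold change -0.43, SE 0.112, adjusted p = 0.0120), a call that ended without CBX7 library 1 (0.140).

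The subunits were also sorted by the PCGF protein they assemble with. Of 7 genes assigned to canonical PRC1, PHC2 alone was lower, a share of 14.3% against 13.9% of all tested genes. Of the 5 genes assigned to PRC1.1, PCGF1 and BCOR were lower (40.0%). KDM2B, the CpG-binding demethylase, BCORL1 and the deubiquitinase USP7 were not called, with log2 fold changes of -0.04, -0.14 and -0.12. Of 4 genes of PRC1.3 and PRC1.5, PCGF5 was lower, and AUTS2 and DCAF7 had log2 fold changes of 0.38 and 0.16 without a call. AUTS2 was the least abundant of the 41, at 4.78 and 4.68 CPM in controls and 6.23 and 6.10 CPM with overexpression. Of 5 genes of PRC1.6, PCGF6 alone was lower, with the call that ended under the alternatives given above, and the DNA-binding subunit E2F6 was at 56.0 and 50.4 CPM against 42.0 and 45.3 CPM, which missed the threshold (log2 fold change -0.29, adjusted p = 0.0864). MGA, L3MBTL2 and WDR5, the other genes assigned to it, had log2 fold changes of -0.06 to -0.01.

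The core of PRC2 holds the methyltransferase with EED and SUZ12 and the histone-binding RBBP proteins. EZH1 and EED were lower, 2 of 6 genes (33.3%, against 13.9% of all tested genes), and none was higher, also with DESeq2 and limma-voom. EZH1 (chromosome 17, 42700275 to 42745049), the weaker methyltransferase that prevails in resting cells, was at 36.3 and 36.7 CPM in controls and 24.5 and 24.3 CPM with overexpression (log2 fold change -0.58, SE 0.118, adjusted p = 0.00261). The replicates of EZH1 lay close together in each group and the groups far apart. EED (chromosome 11, 86244544 to 86278813), which reads the methyl mark and activates the enzyme, was at 37.5 and 39.9 CPM against 30.1 and 27.7 CPM (log2 fold change -0.42, SE 0.119, adjusted p = 0.0202), a call that ended without control 2 (0.0665), without CBX7 library 1 (0.0808) or without CBX7 library 2 (0.197).

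EZH2, the methyltransferase of dividing cells, was at 68.4 and 65.0 CPM in controls and 66.0 and 61.5 CPM with overexpression. Its groups overlapped, and the interval of its log2 fold change ran from -0.30 to 0.17. SUZ12, the scaffold of PRC2, was at 124 and 110 CPM against 102 and 92.25 CPM, with both CBX7 libraries below both controls but no call (log2 fold change -0.27, interval -0.50 to -0.03, adjusted p = 0.0968). RBBP4 and RBBP7, histone chaperones that also serve other complexes, had log2 fold changes of 0.20 and 0.13, with both CBX7 libraries above both controls and no call. Fitted changes in the core thus ran from -0.58 for EZH1 to 0.20 for RBBP4.

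Accessory subunits decide where PRC2 settles, and 4 of 7 were lower (57.1%, against 13.9% of all tested genes). PRC2.1 carries a Polycomb-like protein (PHF1, MTF2 or PHF19) with EPOP or the PALI1 product of the LCOR locus, and PRC2.2 carries JARID2 and AEBP2. MTF2 (chromosome 1, 93079235 to 93139081), a Polycomb-like protein that binds unmethylated CpG DNA, was at 41.5 and 34.1 CPM in controls and 23.2 and 24.3 CPM with overexpression, and fell by 37.2% (log2 fold change -0.67, SE 0.130, adjusted p = 0.00195). EPOP (chromosome 17, 38671703 to 38675421), which links PRC2 to elongin, was at 18.6 and 18.3 CPM against 12.6 and 11.6 CPM (log2 fold change -0.61, SE 0.145, adjusted p = 0.00781). AEBP2 (chromosome 12, 19404045 to 19720801), a zinc finger protein that stabilises PRC2.2, was at 59.8 and 47.6 CPM against 37.3 and 36.3 CPM (log2 fold change -0.55, SE 0.128, adjusted p = 0.00669). MTF2 and EPOP belong to PRC2.1 and AEBP2 to PRC2.2, so the calls were not limited to a single form. For PRC2.2 this rests on AEBP2 alone, as JARID2, the other of its 2 genes, was not called. LCOR (chromosome 10, 96832282 to 96995959) was at 78.0 and 64.9 CPM against 55.1 and 46.6 CPM (log2 fold change -0.49, SE 0.126, adjusted p = 0.0117). A gene count does not separate PALI1 from the shorter LCOR product of the same locus. The calls ended without control 1 for AEBP2 (0.0576), without CBX7 library 2 for EPOP (0.0961), and without either for LCOR (0.0787 and 0.175). Without CBX7 library 2, PRC2 as a whole had 3 genes lower instead of 6.

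PHF1 and PHF19, the other Polycomb-like proteins, each had a log2 fold change of 0.12 with overlapping groups and no call. JARID2, which helps target PRC2 and is itself methylated by it, was at 21.2 and 19.5 CPM in controls and 20.9 and 17.4 CPM with overexpression (log2 fold change -0.08, interval -0.39 to 0.23). In PR-DUB, the deubiquitinase BAP1 was at 61.1 and 67.0 CPM against 72.5 and 69.4 CPM (log2 fold change 0.15, interval -0.09 to 0.38). ASXL1 and ASXL2, the cofactors that activate BAP1, had log2 fold changes of -0.20 and -0.02. None of the 3 PR-DUB genes was called in either direction, against 24.4% of all tested genes, and 3 genes are too few to set beside that share.

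Related subunits often substitute for each other, so their balance was measured within each library as the log2 ratio of their CPM, which library scaling leaves untouched. A gene called beside a paralog that is not called does not by itself show unequal change. In 13 pairs the exact two-sided permutation test over 2 against 2 libraries can give no p below 0.333, which is 0.433 after adjustment over the pairs, so these differences are descriptions. EZH1 to EZH2 was -0.91 and -0.82 in the controls against -1.43 and -1.34 with overexpression, a difference of -0.52, with replicates closer than the groups. PCGF3 to PCGF5 was -1.76 and -1.47 in the controls against -0.89 and -0.67 with overexpression, a difference of 0.83. MTF2 to PHF19 was -0.36 and -0.91 in the controls against -1.42 in both CBX7 libraries, a difference of -0.79 that became -0.51 without control 1. In these 3 pairs the balance moved away from the gene called lower. That follows from the call of a gene beside a paralog with a small fitted change, and is no separate result.

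PHC1 to PHC2 was -1.14 and -1.12 in the controls against -0.51 and -0.30 with overexpression, a difference of 0.72. RYBP to YAF2, both called lower, was 0.90 and 0.83 against 0.81 and 0.63, a difference of -0.14 that ran from -0.23 without CBX7 library 1 to -0.05 without CBX7 library 2. The groups overlapped for RBBP4 to RBBP7, which differed by 0.07, and for PCGF1 to PCGF5, which differed by 0.15 and by -0.07 without control 1. RING1 to RNF2, a pair with neither gene called, was -0.66 and -0.01 in the controls and 0.07 and 0.17 after overexpression, and its difference of 0.45 was 0.12 without control 1 and 0.77 without control 2. The pairs are not independent, since PCGF5, PHC2 and MTF2 each enter more than 1 of them.

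**Figure D4:**
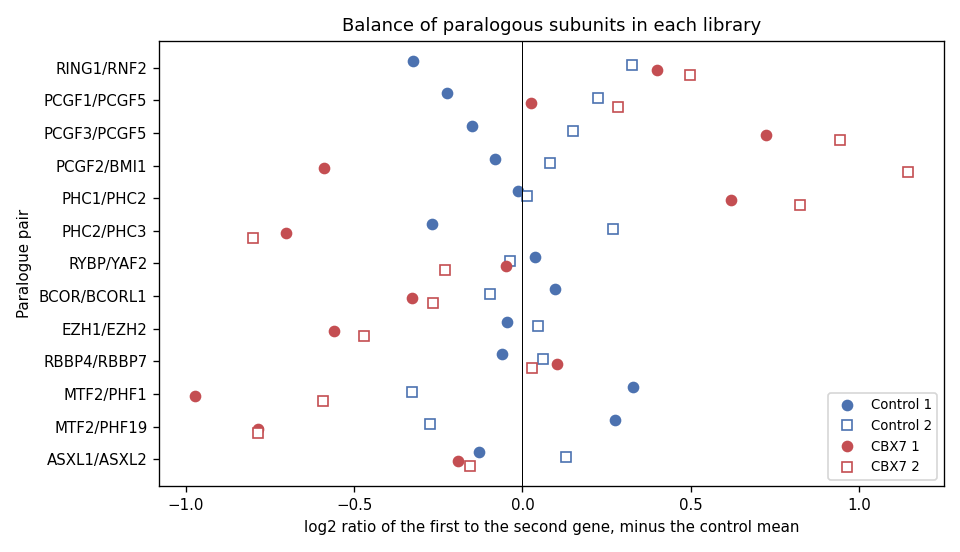
Log2 ratio of the first to the second gene of 13 paralogue pairs in each library, with the control mean of the pair set to 0; circles are libraries 1 and squares libraries 2. The red points of EZH1/EZH2 lie left of the blue ones and those of PCGF3/PCGF5 and PHC1/PHC2 right of them, while PCGF2/BMI1 spreads on both sides.

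To compare levels between genes, CPM was divided by exonic length in GENCODE release 29, in units of CPM per kilobase. Union exon lengths include untranslated parts that A549 transcripts may not use, so the order is approximate. In the controls RBBP7 was highest at 79.8 ± 2.64 (SD, n = 2) and AUTS2 lowest at 0.352 ± 0.0057 (SD, n = 2) CPM per kilobase. Among the PCGF genes other than BMI1, PCGF5 was highest in the controls at 22.9 ± 4.45 CPM per kilobase (SD, n = 2). It remained so with overexpression at 13.4 ± 1.12 CPM per kilobase (SD, n = 2), although its rank among the 41 went from 6 to 11. BMI1 was left out of this order because its own count could not be read. By that count it was at 10.9 ± 1.46 in controls and 10.1 ± 8.01 CPM per kilobase with overexpression (SD, n = 2). EZH2 exceeded EZH1 in both groups, with 21.8 ± 0.791 against 7.86 ± 0.0635 in controls and 20.8 ± 1.04 against 5.25 ± 0.0338 CPM per kilobase with overexpression (SD, n = 2). PHC2, at 17.4 ± 1.57 in controls and 10.6 ± 0.552 CPM per kilobase with overexpression (SD, n = 2), was above PHC1 and PHC3 in both groups. PHF19 was the highest of the Polycomb-like genes in the controls at 12.3 ± 1.59 CPM per kilobase, ahead of MTF2 at 9.16 ± 1.27 and PHF1 at 7.68 ± 1.39 (SD, n = 2), and the spreads of MTF2 and PHF1 overlapped. With overexpression MTF2, at 5.75 ± 0.196, lay below PHF1, at 8.32 ± 1.26 CPM per kilobase (SD, n = 2).

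**Figure D5:**
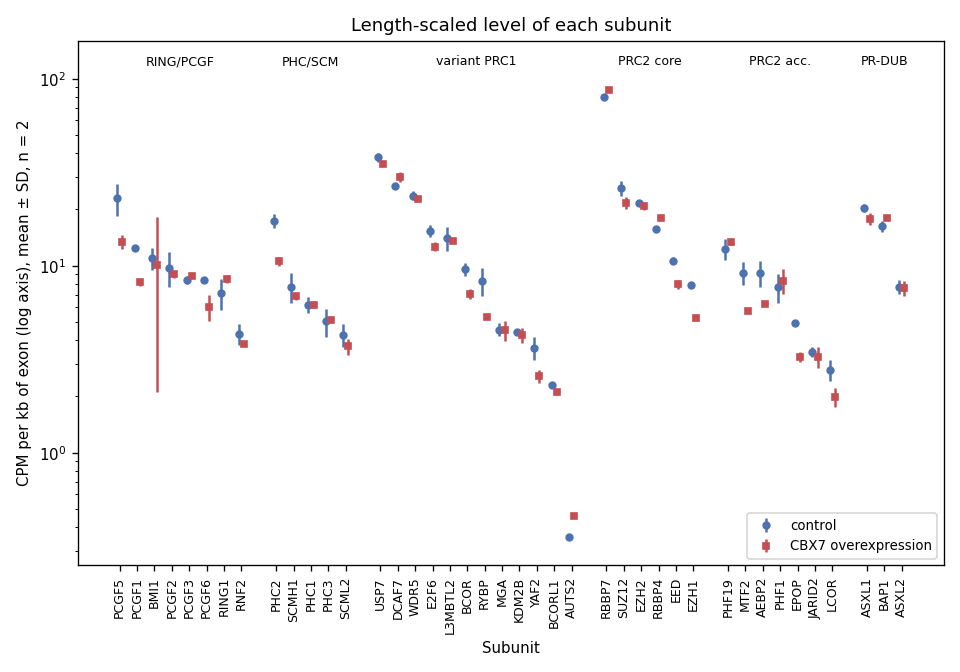
Mean CPM per kilobase of exon of each subunit (log axis) in control (blue) and CBX7 overexpression (red) libraries, with SD over n = 2 libraries, ordered within each role by control level. RBBP7 is highest at 79.8 and AUTS2 lowest at 0.352 in controls, and the wide bar is BMI1.

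The promoters of the 4 subunits with the smallest adjusted p are shown as examples, and by that choice all 4 are genes called lower. CpG-rich DNA is where KDM2B-bound PRC1 and MTF2-bound PRC2 are known to settle. Whether either acts at these promoters was not tested. Each window runs from 250 bases before to 50 after the first listed RefSeq start (GRCh38.p14), 5′ to 3′ on the gene's strand, with CG dinucleotides in capitals. The windows are chr1:33431046-33431345 on the minus strand for PHC2, chr10:91162762-91163061 on the plus strand for PCGF5, chr1:93079033-93079332 on the plus strand for MTF2 and chr3:72446574-72446873 on the minus strand for RYBP; PHC2 and PCGF5 have further listed starts.
PHC2: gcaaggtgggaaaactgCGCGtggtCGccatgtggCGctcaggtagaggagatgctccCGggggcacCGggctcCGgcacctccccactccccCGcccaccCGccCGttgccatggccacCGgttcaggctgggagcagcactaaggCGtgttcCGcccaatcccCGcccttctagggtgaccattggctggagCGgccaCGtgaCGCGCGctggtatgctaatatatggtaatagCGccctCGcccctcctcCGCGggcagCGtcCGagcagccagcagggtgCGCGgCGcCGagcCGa
PCGF5: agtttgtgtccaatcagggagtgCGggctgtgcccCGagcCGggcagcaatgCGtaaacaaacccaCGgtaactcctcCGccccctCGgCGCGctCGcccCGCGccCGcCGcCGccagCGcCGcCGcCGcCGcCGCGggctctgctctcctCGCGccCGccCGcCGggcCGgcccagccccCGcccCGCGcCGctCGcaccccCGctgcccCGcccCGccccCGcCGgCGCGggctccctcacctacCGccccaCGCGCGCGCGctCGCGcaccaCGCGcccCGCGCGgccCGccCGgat
MTF2: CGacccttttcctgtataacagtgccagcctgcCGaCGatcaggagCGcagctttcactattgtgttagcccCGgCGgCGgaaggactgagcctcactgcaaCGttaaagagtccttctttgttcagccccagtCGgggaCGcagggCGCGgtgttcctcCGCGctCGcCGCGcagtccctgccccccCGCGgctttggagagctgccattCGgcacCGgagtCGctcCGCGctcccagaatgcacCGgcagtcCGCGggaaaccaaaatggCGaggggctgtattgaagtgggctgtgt
RYBP: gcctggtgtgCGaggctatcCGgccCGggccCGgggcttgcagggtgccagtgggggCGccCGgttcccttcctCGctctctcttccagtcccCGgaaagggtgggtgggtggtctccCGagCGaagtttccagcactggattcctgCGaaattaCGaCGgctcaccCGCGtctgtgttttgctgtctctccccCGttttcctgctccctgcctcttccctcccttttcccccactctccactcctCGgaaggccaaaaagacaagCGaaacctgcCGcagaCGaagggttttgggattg
They hold 30, 55, 28 and 20 CG dinucleotides in this order, so PCGF5 is the densest. RefSeq promoters were found for 39 of the 41 genes, all but BAP1 and EPOP. The median was 28 CG dinucleotides over these 39, 28 over the 12 called lower and 25 over 12759 tested genes with a promoter. The medians of the called genes and of all subunits were thus equal. For some subunits the first listed start lies inside the GENCODE gene, so a window need not be the main promoter. The USP7 window, with 1 CG dinucleotide, spans 8949605 to 8949904, while this minus-strand gene reaches to 8964514.

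Short motifs were counted on both strands of the same windows, as descriptions of letters and not of binding. The YY1 core, CCATNTT, was present in 13 of 39 subunit promoters (33.3%), in 3 of the 12 called lower and in 15.05% of tested genes' promoters. The ETS site, CCGGAAG, was present in 6 of 39 (15.4%), in 1 of the 12 called lower (PCGF1) and in 16.9% of tested genes' promoters. The AP-1 site, TGANTCA, was in none of the 39, against 5.12% of tested genes' promoters.

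By position, 3 of the called genes, PCGF5, LCOR and PCGF6, lie on the long arm of chromosome 10, with gaps of 5.55 and 6.31 megabases between neighbours, and the 13 called genes lie on 8 chromosomes. EPOP and PCGF2 are 58.5 kilobases apart on chromosome 17, where EPOP fell and PCGF2 was not called. Median exonic length was 4642 bases for the called and 4625 bases for the uncalled genes. Exons of PCGF2, PHC1, KDM2B, L3MBTL2, RBBP4, RBBP7 and PHF1 overlap those of protein-coding genes on the other strand in GENCODE, and with the strand setting of the counting not given their levels may include reads of those neighbours. None of the 13 called genes overlaps a protein-coding gene in this way.

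Other genes of the pathway were read from the same test. Of 25 tested partners outside the 41 genes, 6 were lower (24.0%, against 13.9% of all tested genes) and 1 higher (4.0%, against 10.5%), with a median log2 fold change of -0.09; a further 2 were too low to test. MAX, which pairs with MGA in PRC1.6 and with MYC elsewhere, was at 49.1 and 45.4 CPM in controls and 25.9 and 25.3 CPM with overexpression, which gave a log2 fold change of -0.89 with an SE of 0.117 and an adjusted p of 8.66e-05. SFMBT2, a Polycomb group protein with MBT repeats, was at 18.0 and 20.9 CPM against 9.02 and 7.86 CPM, and its log2 fold change was -1.20 (SE 0.160, adjusted p = 8.90e-05). Both fell further than any of the 13 called subunits by fitted value, as did SCML1 by a narrow margin (-0.786 against -0.776 for PCGF5). SCML1 and MBD6, the latter a PR-DUB partner, fell with log2 fold changes of -0.79 and -0.57 (adjusted p of 0.00331 and 0.00570), the SCML1 value being -0.48 without control 1 (0.0297). FOXK1, a DNA-binding partner of BAP1, fell with a log2 fold change of -0.47 (adjusted p = 0.00953) and SFMBT1 with one of -0.39 (0.0409). The gene that rose was FBRSL1, a relative of AUTS2, with a log2 fold change of 0.45 (adjusted p = 0.0368). The calls of MBD6 and FOXK1 ended without CBX7 library 2 (0.0743 and 0.140), leaving 3 partners lower; that of FBRSL1 ended without control 1 (0.173) or CBX7 library 1 (0.286), leaving 0 higher; and that of SFMBT1 ended without control 1 (0.140), CBX7 library 1 (0.313) or CBX7 library 2 (0.111) and with library totals (0.0791).

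Among 7 enzymes that remove Polycomb marks, the H3K27 demethylases KDM6A and KDM6B were called lower (28.6%, against 13.9% of all tested genes) and none was called higher. KDM6B was at 41.2 and 36.2 CPM in controls and 10.98 and 11.7 CPM with overexpression (log2 fold change -1.77, SE 0.133, adjusted p = 2.86e-07), while KDM6A was at 57.7 and 49.6 CPM against 23.8 and 27.8 CPM (log2 fold change -1.06, SE 0.129, adjusted p = 4.06e-05). Neither gene's groups came near each other. The 5 H2A deubiquitinases USP16, USP21, MYSM1, USP3 and USP22 were not called by edgeR, with fitted log2 fold changes of -0.40 to 0.24, although 3 of the 5 had an unadjusted p under 0.05, and DESeq2 called 1 of them, USP22, higher. MYSM1 was called lower as well with no low-count filter (adjusted p = 0.0431), at a mean count of 50 or more (0.0193), with the replicate block (0.0336) and without control 2 (0.00939). The genes whose products erase H3K27 methylation were thus lower alongside EZH1, EED and 4 accessory subunits of the enzyme that writes it. The other 7 of the 13 PRC2 genes, EZH2 and SUZ12 among them, were not called. A change in RNA is not a measure of either activity.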

How the data were processed

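The authors deposited 1 table of estimated counts per gene and library, keyed by symbol; all values were whole numbers, so rounding changed none. The build was hg38 per the submitters' processing notes, which also list StringTie 2.2.1, HISAT2 2.2.1 and DESeq2 without saying what each did. The choice of annotation, strand setting and handling of shared reads is not given in the sources used here. Libraries were grouped by title, 2 control and 2 CBX7, and all 4 were fitted together with edgeR 4.0.16 in R 4.3.3 (filterByExpr, TMM, robust quasi-likelihood, group as the term, Benjamini-Hochberg over all tested genes). Standard errors and 95% intervals were worked out from each gene's F statistic and fitted log2 fold change. Two-sided exact permutation tests were used for paralogue ratios. DESeq2 1.42.0 and limma 3.58.1 were alternatives, beside other scalings and filters, a replicate block and leaving out each library. Positions and lengths are from GENCODE release 29 (GRCh38) and promoters from RefSeq (GRCh38.p14). The members, lists, pairs and alternatives were chosen with earlier results of these data known. Every called member and the catalytic or core members are given with each library's value. The promoter motifs, the sorting into PCGF-defined complexes, the neighbouring gene pairs and the range-restricted background were chosen after the data were seen. Precision is limited by 2 libraries per group, at total counts of 69877585 to 90765502.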

Additional observations from a re-analysis of the deposited data

How the results depend on the processing

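Of the 13 members called lower, 5 (PCGF5, PHC2, RYBP, EZH1 and MTF2) were called lower under each of the 12 alternatives run for them, and all 13 kept a negative log2 fold change under each. The other 8 lost the call under at least 1, as given beside each gene. The count of members lower was 12 with library totals or without robust estimation, 13 under the other alternatives that kept all 4 libraries, and 9 to 11 with 1 library left out; the count higher was 0 to 1, the 1 being BMI1. With 1 library left out, PRC1 had 5 to 6 members lower and 0 to 1 higher, PRC2 3 to 5 lower, the other partners 3 to 6 lower and 0 to 1 higher, and the mark-removing enzymes 2 to 3 lower. Among all tested genes 1021 to 1790 were higher and 1689 to 2134 lower. A fit that leaves a group with 1 library assumes that this library varies like the other group.

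Library totals, which raised the fitted log2 fold changes by a median of 0.067, gave 2 partners and 1 mark-removing enzyme called higher, against 1 and 0 with TMM, and 2487 genes higher and 2033 lower; the cause was not tested. DESeq2 also called 1 such enzyme higher, USP22. Signs turned for uncalled members with fitted values near 0. With library totals the log2 fold changes were 0.023 for KDM2B, 0.012 for L3MBTL2, 0.055 for MGA, 0.0066 for WDR5, 0.0027 for EZH2 and 0.042 for ASXL2. At a mean count of 50 or more, PHC1 was at -0.0046. Over the fits leaving out 1 library, BMI1 ran from -1.29 to 0.54, PCGF2 from -0.31 to 0.13, PHC1 from -0.097 to 0.12, PHC3 from -0.14 to 0.21, SCMH1 from -0.33 to 0.045, KDM2B from -0.14 to 0.055, L3MBTL2 from -0.19 to 0.10, MGA from -0.14 to 0.11, WDR5 from -0.11 to 0.0033, JARID2 from -0.22 to 0.051, PHF1 from -0.055 to 0.32, PHF19 from -0.0079 to 0.26 and ASXL2 from -0.12 to 0.074.

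Replicate numbers are shared between the groups, but nothing says that they pair libraries, and the deviations of same-numbered libraries from their group means correlated at 0.028 across genes, which are not independent replicates. With the replicate block the members lower were 13 and higher 0, and all tested genes 2100 higher and 2503 lower. With 1 library left out, the paralogue ratio differences ran from -0.59 to 1.15 for PCGF2 to BMI1 and from -0.07 to 0.38 for PCGF1 to PCGF5, the pairs whose sign turned. They ran from -1.02 to -0.48 for PHC2 to PHC3, from -1.11 to -0.46 for MTF2 to PHF1, from -0.30 to -0.05 for ASXL1 to ASXL2 and from 0.0048 to 0.13 for RBBP4 to RBBP7. The precision of every value is limited by 2 libraries per group.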
